A study of Homo sapiens with 4 samples.

Results

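The proteasome genes of HaCaT keratinocytes were described here: the genes whose symbol is PSM followed by A, B, C, D, E, F or G and a number, with PSMB8 and PSMB9 left out of the family and used only as a comparison. The rule found 46 genes among the 58825 in the deposited table, and it used no measured value. They comprised the 14 subunits of the 20S core, 3 variants of core subunits, the 6 ATPases and 11 non-ATPase subunits of the 19S cap, 3 assembly chaperones of the cap, 5 activators or inhibitors and 4 assembly chaperones of the core. Of the 46, 44 averaged at least 1 FPKM (fragments mapped to the transcript, divided by its length and by the library total) in a group and were among the 12411 genes tested. The untested members were PSMA8, a testis form of an alpha subunit, and PSMB11, a thymus form of a catalytic subunit. PSMA8 was listed at 0.03 FPKM in 1 knockdown library and at 0 in the other 3 libraries, and PSMB11 was listed at 0 in all 4.

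The proteasome is the cell's main machine for destroying proteins tagged with ubiquitin. Its barrel-shaped 20S core cuts proteins inside a closed chamber, with alpha subunits forming the outer rings and beta subunits, some of them proteases, the inner rings. The 19S cap recognises the ubiquitin chain, removes it, and unfolds and threads the protein into the core with a ring of ATPases. Interferon-induced subunits can replace the constitutive proteases to form the immunoproteasome, which favours peptides for antigen presentation.

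The libraries came from HaCaT, an established human keratinocyte line that can be driven to differentiate by calcium, and all were grown in medium with 1.2 mM calcium. The tested cells carried a lentiviral short hairpin RNA against lnc-DC (shlnc-DC, 2 libraries), and the control cells a lentiviral control hairpin (shNC, 2 libraries). The study asked what silencing this long noncoding RNA does to the expression signature of differentiating keratinocytes. The labels name 1 hairpin per group and call the libraries biological replicates, without saying whether each came from its own transduction. The p-values therefore cover the spread between libraries, which may be technical.

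The targeted transcript was low in both knockdown libraries. WFDC21P, the gene of lnc-DC, stood at 0.09 and 0.29 FPKM in the lnc-DC knockdown libraries, against 2.15 and 2.76 FPKM in the control libraries, a 12.9-fold lower mean, with an adjusted p of 0.0715 in limma. Across all 12411 genes tested, 31 (0.25%) passed an adjusted p of 0.05, 14 of them higher and 17 lower in the knockdown; median centring of the libraries gave 13 higher and 24 lower, and quantile normalization 17 higher and 40 lower. Between 22351 and 22780 genes were above 0 in a library. Transcripts of the mitochondrial genome took 28.1% and 26.8% of the FPKM total in the knockdown libraries, against 41.2% and 41.9% in the control libraries. Of 11 keratinocyte markers, 9 reached 1 FPKM, the exceptions being KRT14 and KRT17. The 11 summed to 448 and 485 FPKM in the knockdown libraries and to 774 and 815 FPKM in the control libraries. KRT5 and SFN were the largest terms of these sums. TP63, ITGB4, PERP and DSP overlapped between the groups, and the other markers were lower in both knockdown libraries (19.2% of all tested genes). No fibroblast marker of 7 reached 1 FPKM (sums of 0.61 and 0.49 in the knockdown libraries, 0.69 and 0.61 in the control libraries). Of the melanocyte, immune and endothelial markers, MITF, CD14 and CDH5 did so; the sums were 4.13 and 4.39, 1.02 and 1.3, and 3.93 and 6.44 FPKM in the knockdown libraries, against 4.68 and 3.38, 3.05 and 1.54, and 4.58 and 3.61 FPKM in the control libraries. TYR, SOX10, PTPRC, CD4, CD8A, KDR and COL1A2 were listed at 0 throughout. The part that the mitochondrial share, the scale of the libraries or the keratinocyte markers play in the values below was not tested, except for rescaling to nuclear genes.

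Promoter sequences are shown for PSMB10, the member with the lowest unadjusted p, for the activator pair PSME1 and PSME2 that holds the same motif letters, and for 4 members with a higher level in the knockdown, all picked with their values known. These 4 were also picked for holding the first motif named below. PSMA3, PSMC2 and PSMC3, the other members higher at an unadjusted p under 0.05, do not hold it and are not shown. The motifs were chosen because the factors that bind them are textbook regulators of proteasome genes. The antioxidant response element core, TGACNNNGC, is bound by NFE2L1 and NFE2L2 with small MAF proteins, and NFE2L1 is known to raise proteasome genes when the proteasome is inhibited. The interferon regulatory element core, GAAANNGAA, is bound by interferon regulatory factors. RefSeq promoter windows (GRCh38.p14, 250 bases before to 50 bases after the start site, both strands searched) matched 40 of the 46 members. In each line the 60 bases run 5′ to 3′ on the gene's strand, and the capitals mark the motif match. The first 3 genes belong to the immunoproteasome group, with the match starting 21 bases before, 6 after and 28 before the start site. All 3 hold the same matched letters on 1 strand or the other. The letters are not particular to that group: PSMG4, a core chaperone outside it, holds them too and is not shown. PSMB8 and PSMB9, the other 2 genes of the group, have no match in their windows.
PSMB10 (chr16:67936838-67936897, minus strand): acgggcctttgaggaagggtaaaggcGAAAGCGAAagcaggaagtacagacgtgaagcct
PSME1 (chr14:24136174-24136233, plus strand): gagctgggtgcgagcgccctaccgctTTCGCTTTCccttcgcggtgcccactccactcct
PSME2 (chr14:24146605-24146664, minus strand): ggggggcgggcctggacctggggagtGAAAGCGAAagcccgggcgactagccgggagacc
The other 4 genes code for parts of the 19S cap or its chaperone, and hold the antioxidant response element core. It starts 37 bases before, 39 after, 134 before and 165 before the start site, in the order of the lines. PSMD3 holds a second match on the other strand, 33 bases after the start site and outside the bases shown.
PSMD3 (chr17:39980744-39980803, plus strand): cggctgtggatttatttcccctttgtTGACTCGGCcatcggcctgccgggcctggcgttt
PSMD1 (chr2:231056857-231056916, plus strand): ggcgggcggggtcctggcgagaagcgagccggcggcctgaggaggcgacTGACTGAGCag
PSMD5 (chr9:120843023-120843082, minus strand): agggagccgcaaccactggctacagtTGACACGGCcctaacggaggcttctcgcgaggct
PSMD12 (chr17:67366709-67366768, minus strand): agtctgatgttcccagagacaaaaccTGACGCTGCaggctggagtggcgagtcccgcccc

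TGACNNNGC occurred in 12 of the 40 member promoters and in 13.6% of all 27305 promoters of that length. Those 12 were PSMB3, PSMC4, PSMD1, PSMD3, PSMD5, PSMD9, PSMD12, PSME1, PSME2, PSME4, PSMG1 and PSMG2. By class they were 1 of 10 matched core promoters, 1 of 6 ATPase promoters and 3 of 10 non-ATPase promoters. GAAANNGAA occurred in 7 of 40 member promoters, against 8.29% of all: PSMA4, PSMB4, PSMB10, PSMC2, PSME1, PSME2 and PSMG4. The CCAAT box, a general promoter element, occurred in 18 of 40, against 35.7% of all. These matches describe letters in the windows and do not show binding.

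PSMB10 stood apart from the other members and was the only 1 with an unadjusted p under 0.05 and a lower level in the knockdown. It codes for the inducible trypsin-like protease that takes the place of PSMB7 in the immunoproteasome (GENCODE 29, GRCh38, chr16:67934502-67937087, minus strand). Its level was 6.11 and 7.54 FPKM in the knockdown libraries, against 15.47 and 16.04 FPKM in the control libraries. Both knockdown libraries lay below both control libraries, and the gap was wider than the spread within either group. The means were 6.825 ± 1.01 FPKM in the knockdown and 15.75 ± 0.403 FPKM in the control (SD, n = 2 each), a mean 2.31-fold higher in the control. The log2 fold change was -1.10 (SE 0.134), with an unadjusted p of 0.00058 and an adjusted p of 0.0712 in limma, so PSMB10 did not pass the threshold. Over 12 alternative settings the log2 fold change ran between -1.24 and -0.97 and the adjusted p between 0.0501 and 0.263. The authors' deposited table gives a ratio of 0.43 and a log2 ratio of -1.21 for the same gene. AC040162.1 shares exon bases with it on the same strand, at 0.78 and 0.87 FPKM in the knockdown libraries and 1.55 and 0.56 FPKM in the control libraries. In bulk RNA, fewer cells that express a gene and less of its RNA per cell cannot be told apart.

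PSMB8 and PSMB9, the other inducible proteases, were lower by smaller amounts that did not pass the test. PSMB9, which takes the place of PSMB6, stood at 13.0 and 13.1 FPKM in the knockdown libraries, against 15.1 and 17.9 FPKM in the control libraries (log2 fold change -0.31, SE 0.125, adjusted p = 0.232 in limma). PSMB8, which takes the place of PSMB5, stood at 25.1 and 24.2 FPKM in the knockdown libraries, against 26.0 and 33.1 FPKM in the control libraries (log2 fold change -0.24, SE 0.148, adjusted p = 0.394 in limma). In both genes the groups did not overlap, as in 19.2% of all tested genes with the knockdown lower. The spread between the control libraries was a large part of the difference. The 2 genes lie head to head with overlapping exons, and PSMB8-AS1 overlaps both, at 2.77 and 3.83 FPKM in the knockdown libraries and 5.48 and 5.82 FPKM in the control libraries. The strand setting of the counting is not given in the sources used here, so reads of these genes may not have been told apart. PSMB8-AS1 lies on the strand of PSMB9, so strand alone could not separate reads of the bases they share.

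The constitutive proteases did not share the lower level of PSMB10. PSMB7, the trypsin-like protease and the member with the highest mean, stood at 129 and 146 FPKM in the knockdown libraries, against 113 and 138 FPKM in the control libraries (log2 fold change 0.14, SE 0.152, adjusted p = 0.623 in limma). The groups overlapped. PSMB6, the caspase-like protease, stood at 65.4 and 69.3 FPKM in the knockdown libraries, against 57.1 and 65.4 FPKM in the control libraries (log2 fold change 0.14, SE 0.121, adjusted p = 0.537), and the groups met at 65.4 FPKM. PSMB5, the chymotrypsin-like protease and target of proteasome inhibitor drugs, stood at 49.3 and 69.0 FPKM in the knockdown libraries, against 47.4 and 44.2 FPKM in the control libraries. Knockdown replicate 2 alone stood well above the rest, and the log2 fold change was 0.34 (SE 0.187, adjusted p = 0.345); without that library it was 0.11.

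The level of each inducible protease was also set against its constitutive counterpart within a library. PSMB10 amounted to 4.74% and 5.16% of PSMB7 in the knockdown libraries, against 13.7% and 11.6% in the control libraries. PSMB9 amounted to 19.8% and 18.9% of PSMB6 in the knockdown libraries, against 26.5% and 27.4% in the control libraries. PSMB8 amounted to 51.0% and 35.1% of PSMB5 in the knockdown libraries, against 54.9% and 74.9% in the control libraries. In all 3 pairs both knockdown libraries lay below both control libraries. Within a library these ratios do not depend on how it was scaled. The share of other gene pairs that separate this way was not computed. The gap was narrowest for PSMB8, at 51.0% against 54.9%. Its lowest and highest ratios came with 69.0 FPKM of PSMB5 in knockdown replicate 2 and 33.1 FPKM of PSMB8 in control replicate 2. With 2 libraries a group the ratios are given with no test.

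**Figure D1:**
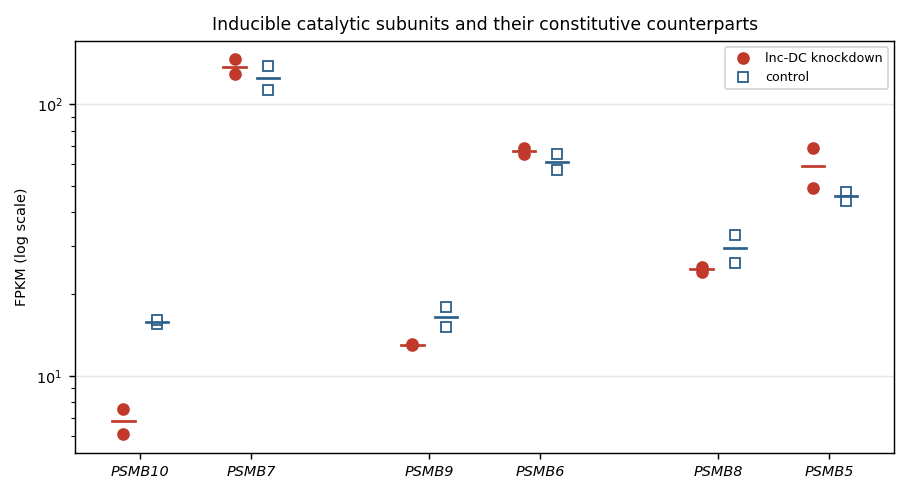
FPKM (log scale) of the 3 inducible proteases, each beside the constitutive subunit whose place it takes; filled circles are the 2 lnc-DC knockdown libraries, open squares the 2 control libraries and short lines the group means. PSMB10 lies at 6.11 and 7.54 FPKM in the knockdown, below 15.47 and 16.04 FPKM in the control, while PSMB7 overlaps between the groups.

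The immunoproteasome list, which holds these 3 proteases with PSME1 and PSME2, had 5 tested members. None had a log2 fold change above 0 (61.4% of all tested genes), 1 (PSMB10) was lower at an unadjusted p under 0.05 (8.0% of all), and the median log2 fold change was -0.24, against 0.09 over all tested genes. PSME1 and PSME2 form the ring-shaped activator that interferon induces. PSME1 stood at 99.8 and 121 FPKM in the knockdown libraries, against 111 and 136 FPKM in the control libraries. PSME2 stood at 37.0 and 38.1 FPKM in the knockdown libraries, against 33.5 and 52.6 FPKM in the control libraries. Both overlapped between the groups, with adjusted p of 0.605 and 0.709 in limma.

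Most other members were somewhat higher in the knockdown, and none passed the adjusted threshold. Of the 44 tested, 34 had a log2 fold change above 0, against 61.4% of all tested genes. Under median centring 31 did, under quantile normalization 29 and after rescaling to nuclear genes 32. The share of all genes above 0 was not computed for these settings. The median over the members was 0.19, against 0.09 over all tested genes and 0.14 over those averaging 5 FPKM or more. An unadjusted p under 0.05 with a higher level was found for 7 members (PSMA3, PSMC2, PSMC3, PSMD1, PSMD3, PSMD5 and PSMD12), against 14.8% of all tested genes and 20% of those averaging 5 FPKM or more. That share is close to the background, and only 2 of the 7, PSMD3 and PSMD5, kept an unadjusted p under 0.05 after median centring. On the lower side 1 member, PSMB10, had an unadjusted p under 0.05, against 8.0% of all tested genes. In 19 members both knockdown libraries lay above both control libraries, against 35.6% of all tested genes, and in 1 member they lay below, against 19.2%. Replicate 2 exceeded replicate 1 in 32 of the 44 members in the knockdown and in 33 in the control. The share of all tested genes that do so was not computed, so this may not be particular to the family.

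**Figure D2:**
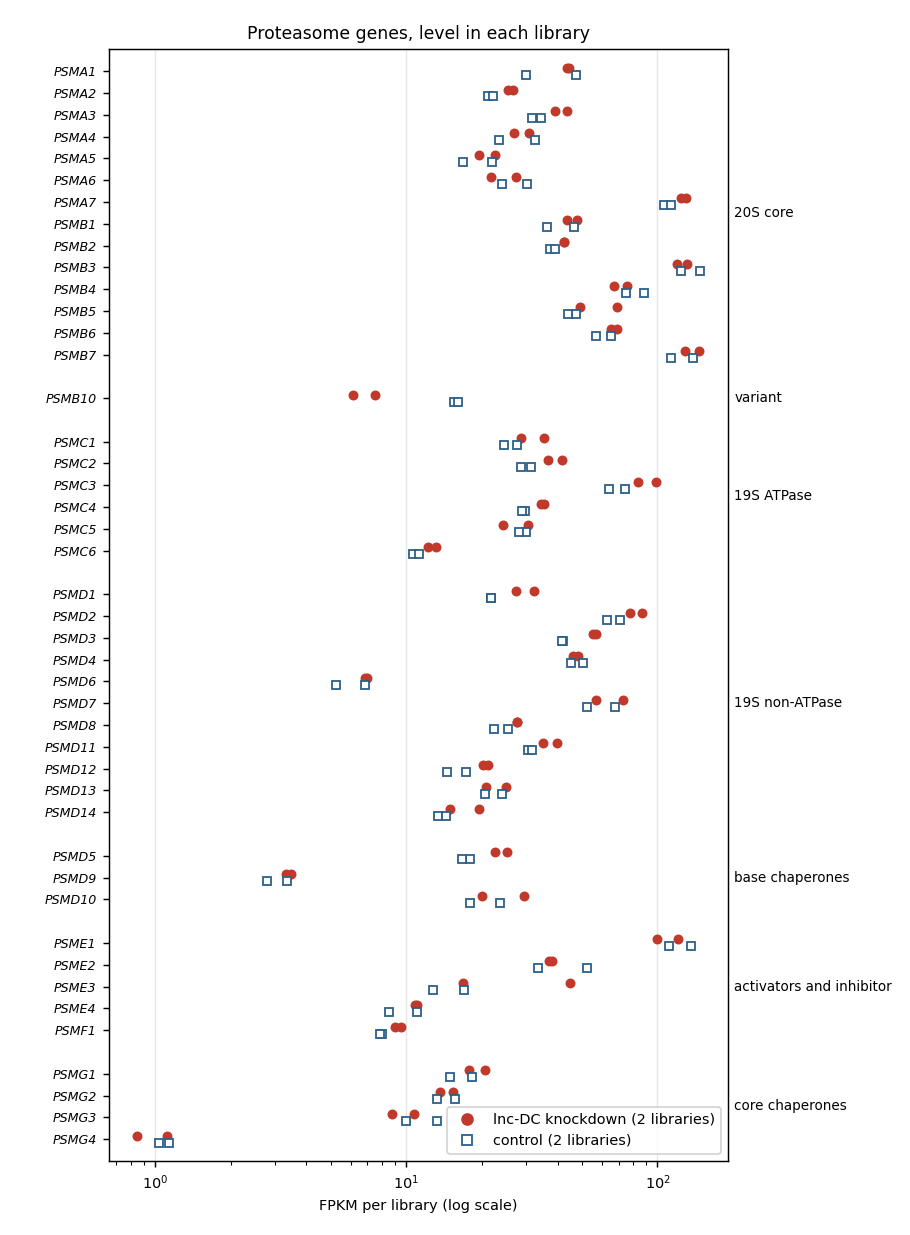
Level of each tested member in each library, in FPKM on a log scale, grouped by role; filled circles are the lnc-DC knockdown and open squares the control, 2 libraries each. Levels ran between 0.85 and 147 FPKM, and PSMB10 is the only member whose knockdown libraries both lie below its control libraries.

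The 20S core showed the smallest median of the 3 main classes. Its 14 genes had a median log2 fold change of 0.14, equal at 2 decimals to the median of all genes averaging 5 FPKM or more. Of these 14, 11 were above 0 (61.4% of all tested genes). At an unadjusted p under 0.05, 1 was higher (14.8% of all, and 20% of those averaging 5 FPKM or more). In 5 both knockdown libraries lay above both control libraries, a share near the 35.6% of all. Among the alpha subunits, which gate the entry to the chamber, PSMA3 had the lowest unadjusted p, 0.0469. Its level was 39.1 and 43.7 FPKM in the knockdown libraries, against 34.5 and 31.6 FPKM in the control libraries (log2 fold change 0.32, SE 0.118, adjusted p = 0.213 in limma). PSMA2 stood at 26.6 and 25.3 FPKM in the knockdown libraries, against 21.1 and 22.1 FPKM in the control libraries (log2 fold change 0.25, SE 0.103, adjusted p = 0.237). PSMA7, the most abundant alpha subunit, stood at 124 and 130.4 FPKM in the knockdown libraries, against 106 and 113 FPKM in the control libraries (log2 fold change 0.22, SE 0.111, adjusted p = 0.321). In these 3 genes both knockdown libraries lay above both control libraries.

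The other alpha subunits overlapped between the groups. PSMA1 stood at 44.3 and 43.5 FPKM in the knockdown libraries, against 30.0 and 47.3 FPKM in the control libraries. PSMA4 stood at 26.8 and 30.8 FPKM in the knockdown libraries, against 23.4 and 32.6 FPKM in the control libraries. PSMA5, the least abundant core subunit, stood at 19.5 and 22.5 FPKM in the knockdown libraries, against 16.9 and 21.9 FPKM in the control libraries (adjusted p = 0.708 in limma). Control replicate 1 was the lowest library for all 3. PSMA6 stood at 21.6 and 27.3 FPKM in the knockdown libraries, against 24.1 and 30.3 FPKM in the control libraries, and shares exon bases with AL121594.1, which was at 4.61 and 5.78 FPKM in the knockdown libraries and 9.99 and 11.1 FPKM in the control libraries. The alpha ring had a median of 0.22 with 6 of 7 above 0, and the beta ring a median of 0.14 with 5 of 7 above 0. Of all tested genes, 61.4% were above 0.

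Of the beta subunits that are not proteases, PSMB2 alone had no overlap, with 42.6 and 42.3 FPKM in the knockdown libraries, against 37.5 and 39.0 FPKM in the control libraries. PSMB1 stood at 43.4 and 47.9 FPKM in the knockdown libraries, against 36.4 and 46.5 FPKM in the control libraries. PSMB3 and PSMB4 had log2 fold changes below 0, of -0.11 and -0.19. PSMB3 stood at 119 and 131 FPKM in the knockdown libraries, against 124 and 147 FPKM in the control libraries. PSMB4 stood at 67.0 and 75.4 FPKM in the knockdown libraries, against 74.9 and 88.7 FPKM in the control libraries. In FPKM, which is a level per length, PSMB7, PSMB3 and PSMA7 were each several times as high as PSMA5 in every library.

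The 19S ATPases, whose ring unfolds the substrate, had a median log2 fold change of 0.26, against 0.14 over all genes averaging 5 FPKM or more. Of the 6, 5 were above 0 (61.4% of all tested genes), and in the same 5 both knockdown libraries lay above both control libraries (35.6% of all). At an unadjusted p under 0.05, 2 were higher (14.8% of all, and 20% of those averaging 5 FPKM or more), and none passed the adjusted threshold. PSMC2 stood at 36.8 and 41.9 FPKM in the knockdown libraries, against 28.8 and 31.4 FPKM in the control libraries (log2 fold change 0.37, SE 0.122, adjusted p = 0.177 in limma). PSMC3, the most abundant ATPase, stood at 83.3 and 98.5 FPKM in the knockdown libraries, against 64.3 and 74.6 FPKM in the control libraries (log2 fold change 0.38, SE 0.145, adjusted p = 0.218). The ratio of the mean levels was 1.31 for both genes. PSMC4 stood at 35.2 and 34.4 FPKM in the knockdown libraries, against 29.8 and 28.9 FPKM in the control libraries (log2 fold change 0.24, SE 0.0996, adjusted p = 0.247). PSMC1, whose tail helps to open the gate of the core, stood at 28.5 and 35.3 FPKM in the knockdown libraries, against 24.4 and 27.6 FPKM in the control libraries (log2 fold change 0.28, SE 0.149, adjusted p = 0.338). The table holds 13 pseudogenes named after PSMC1, and how reads were shared with them is not given in the sources used here. PSMC6, the least abundant, stood at 12.3 and 13.1 FPKM in the knockdown libraries, against 10.6 and 11.2 FPKM in the control libraries (adjusted p = 0.338). PSMC5 was the exception, with 24.2 and 30.4 FPKM in the knockdown libraries, against 29.8 and 28.1 FPKM in the control libraries, overlapping groups and a log2 fold change of -0.09 (adjusted p = 0.739).

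The 11 non-ATPase subunits had a median log2 fold change of 0.25, against 0.14 over all genes averaging 5 FPKM or more. Of these subunits, 10 were above 0 (61.4% of all tested genes). At an unadjusted p under 0.05, 3 were higher (14.8% of all, and 20% of those averaging 5 FPKM or more). In 7 the knockdown was higher without overlap (35.6% of all). PSMD1 and PSMD2 are the large scaffolds of the base. PSMD1 stood at 27.5 and 32.1 FPKM in the knockdown libraries, against 21.8 and 21.7 FPKM in the control libraries (log2 fold change 0.43, SE 0.121, adjusted p = 0.147 in limma). PSMD2, the most abundant of the class, stood at 77.5 and 86.7 FPKM in the knockdown libraries, against 63.1 and 71.0 FPKM in the control libraries (log2 fold change 0.29, SE 0.126, adjusted p = 0.261). In both, the knockdown libraries lay above the control libraries. PSMD4, a ubiquitin receptor of the base, overlapped between the groups, with 46.2 and 48.4 FPKM in the knockdown libraries, against 45.1 and 50.7 FPKM in the control libraries (log2 fold change -0.02, SE 0.115, adjusted p = 0.945).

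The lid, which removes the ubiquitin chain, had 8 of 8 genes above 0 (61.4% of all tested genes) and a median of 0.23. PSMD7 and PSMD13 were below 0 under quantile normalization, and PSMD13 also under median centring and after rescaling to nuclear genes. PSMD3, a structural lid subunit, had the lowest unadjusted p of all members with a higher level, 0.00996. Its level was 57.2 and 55.4 FPKM in the knockdown libraries, against 42.1 and 41.6 FPKM in the control libraries (log2 fold change 0.42, SE 0.10, adjusted p = 0.119 in limma). The replicates of each group were close together, and the gap between the groups was wider than the spread within either. PSMD12 stood at 21.2 and 20.2 FPKM in the knockdown libraries, against 14.5 and 17.2 FPKM in the control libraries (log2 fold change 0.37, SE 0.127, adjusted p = 0.189). PSMD11, whose level is known to limit assembly of the full complex in some cells, stood at 35.0 and 39.9 FPKM in the knockdown libraries, against 30.6 and 31.8 FPKM in the control libraries (log2 fold change 0.25, SE 0.117, adjusted p = 0.282). PSMD14, the deubiquitinase of the lid, stood at 14.9 and 19.4 FPKM in the knockdown libraries, against 13.4 and 14.4 FPKM in the control libraries (log2 fold change 0.27, SE 0.157, adjusted p = 0.365). PSMD8 stood at 27.7 FPKM in both knockdown libraries, against 22.4 and 25.5 FPKM in the control libraries. In these 5 lid genes the groups did not overlap, with the knockdown higher, as in 35.6% of all tested genes.

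The remaining lid genes overlapped between the groups. PSMD6, the least abundant subunit, stood at 6.98 and 6.82 FPKM in the knockdown libraries, against 5.26 and 6.86 FPKM in the control libraries (adjusted p = 0.535 in limma). PSMD7, the partner of PSMD14, stood at 57.1 and 72.8 FPKM in the knockdown libraries, against 52.4 and 67.8 FPKM in the control libraries. PSMD13 stood at 20.7 and 24.9 FPKM in the knockdown libraries, against 20.6 and 24.0 FPKM in the control libraries, and replicate 2 exceeded replicate 1 in both groups for PSMD7 and PSMD13.

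**Figure D3:**
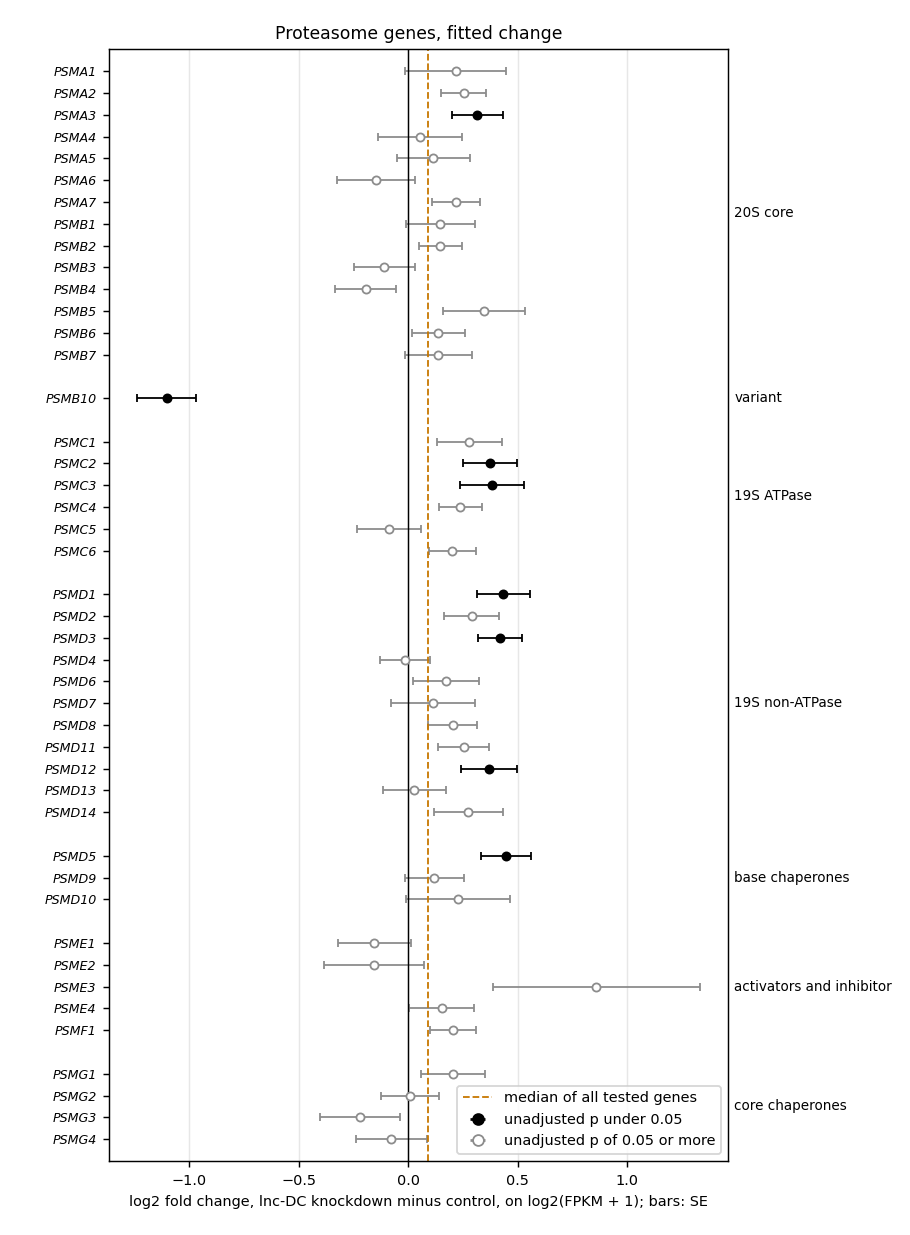
Fitted log2 fold change, lnc-DC knockdown minus control on the log2(FPKM + 1) scale, for the 44 tested members by role; points are estimates, bars SE from limma with 2 libraries per group, filled points have an unadjusted p under 0.05, and the dashed line is the median of all tested genes, 0.09. PSMB10 lies at -1.10, while the other 43 lie between -0.22 and 0.86, most of the 19S genes to the right of the dashed line. The median of all genes averaging 5 FPKM or more was 0.14.

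The 3 classes were compared by their summed levels in each library. The 20S core summed to 818 and 905 FPKM in the knockdown libraries, against 746 and 868 FPKM in the control libraries, so the groups overlapped. The ATPases summed to 220.3 and 253.5 FPKM in the knockdown libraries, against 187.6 and 201.8 FPKM in the control libraries. The non-ATPase subunits summed to 391.7 and 434.2 FPKM in the knockdown libraries, against 331.3 and 372.6 FPKM in the control libraries. The sums of both 19S classes were thus higher in both knockdown libraries than in either control library. The ratio of the 19S sum to the 20S sum was 0.748 and 0.760 in the knockdown libraries, against 0.696 and 0.662 in the control libraries, with no overlap. It was not the same by another measure: the median log2 level of the 19S genes minus that of the 20S genes was -0.61 and -0.40 in the knockdown libraries, against -0.35 and -0.67 in the control libraries, which overlapped. No difference between the classes was therefore established. The 20S median also turned to -0.02 without control replicate 1, whereas the ATPase median stayed between 0.21 and 0.34 and the non-ATPase median between 0.19 and 0.34 when each library was left out in turn. After rescaling to nuclear genes the medians were 0.10 for the core, 0.22 for the ATPases and 0.21 for the non-ATPase subunits, against 0.07 over all tested genes.

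**Figure D4:**
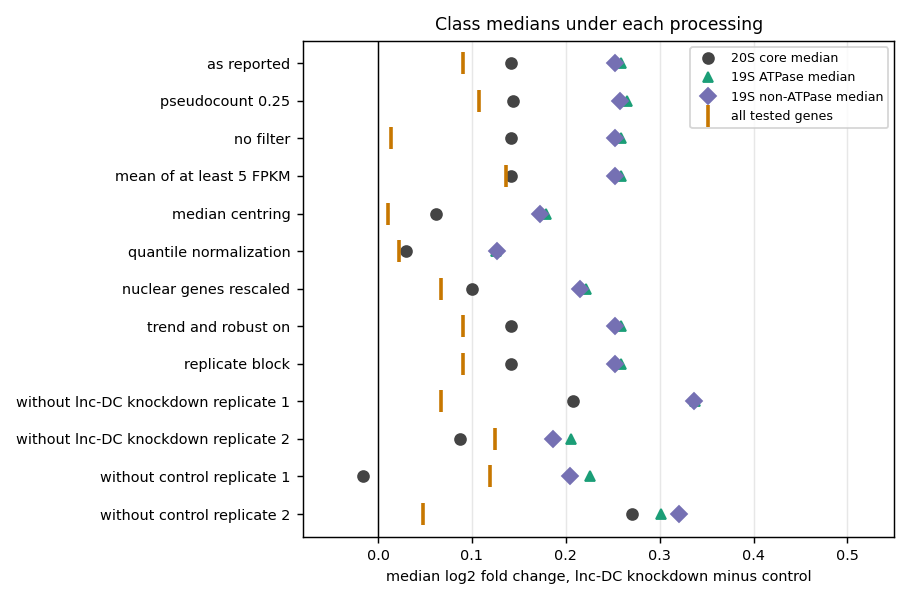
Median log2 fold change (lnc-DC knockdown minus control) of the 20S core, 19S ATPase and 19S non-ATPase genes under each processing, with the median of all tested genes as a vertical tick. The 19S medians stay above the tick throughout, and the 20S median lies below it without control replicate 1 (-0.02) and without knockdown replicate 2 (0.09).

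The chaperones that assemble the cap are named like subunits but leave the finished complex. PSMD5 had the lowest unadjusted p among them, 0.0129. It stood at 22.6 and 25.2 FPKM in the knockdown libraries, against 17.9 and 16.7 FPKM in the control libraries (log2 fold change 0.44, SE 0.114, adjusted p = 0.129 in limma), with no overlap. PSMD10, also known as the oncoprotein gankyrin, stood at 19.96 and 29.5 FPKM in the knockdown libraries, against 23.7 and 17.9 FPKM in the control libraries (log2 fold change 0.23, SE 0.238, adjusted p = 0.599). PSMD9 stood at 3.32 and 3.49 FPKM in the knockdown libraries, against 2.78 and 3.35 FPKM in the control libraries (log2 fold change 0.12, SE 0.135, adjusted p = 0.625). The last 2 overlapped between the groups.

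Among the activators and the inhibitor, PSME3 had the highest log2 fold change of the tested members, 0.86, smaller in size than that of PSMB10, and 1 library set it. This nuclear activator stood at 44.8 and 16.8 FPKM in the knockdown libraries, against 12.8 and 17.0 FPKM in the control libraries (SE 0.473, adjusted p = 0.349 in limma). Knockdown replicate 1 alone was high, and without it the log2 fold change was 0.18. BECN1, on the opposite strand with overlapping exons, was at 7.09 and 7.99 FPKM in the knockdown libraries and 7.02 and 7.29 FPKM in the control libraries. PSME4, an activator linked to histone breakdown, stood at 10.8 and 11.0 FPKM in the knockdown libraries, against 11.0 and 8.56 FPKM in the control libraries (log2 fold change 0.15, SE 0.148, adjusted p = 0.573). PSMF1, an inhibitor of the isolated core, stood at 9.53 and 9.05 FPKM in the knockdown libraries, against 8.03 and 7.83 FPKM in the control libraries (log2 fold change 0.20, SE 0.105, adjusted p = 0.324), with no overlap.

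The chaperones of the core, which work in pairs to build the alpha ring, showed no common direction. Their median was -0.03, with 2 of 4 above 0 (61.4% of all tested genes). PSMG1 stood at 17.9 and 20.7 FPKM in the knockdown libraries, against 15.0 and 18.2 FPKM in the control libraries (log2 fold change 0.21, SE 0.147, adjusted p = 0.458 in limma). Its partner PSMG2 stood at 13.6 and 15.3 FPKM in the knockdown libraries, against 13.2 and 15.6 FPKM in the control libraries. PSMG3 stood at 10.8 and 8.78 FPKM in the knockdown libraries, against 9.96 and 13.3 FPKM in the control libraries (log2 fold change -0.22, SE 0.183, adjusted p = 0.512). Its partner PSMG4, the least abundant tested member, stood at 1.12 and 0.85 FPKM in the knockdown libraries, against 1.14 and 1.04 FPKM in the control libraries (log2 fold change -0.08, SE 0.163, adjusted p = 0.802). All 4 overlapped between the groups.

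Proteasome parts that do not carry a PSM symbol were read from a separate list of 14 genes. Of these 12 were above 0 (61.4% of all tested genes), 5 were higher at an unadjusted p under 0.05 (14.8% of all), none passed the adjusted threshold, and the median log2 fold change was 0.26. POMP, the maturation factor that brings the half-cores together, stood at 84.6 and 85.7 FPKM in the knockdown libraries, against 57.4 and 58.8 FPKM in the control libraries (log2 fold change 0.54, SE 0.101, adjusted p = 0.0972 in limma). The replicates of each group were close together and the groups far apart. PITHD1 stood at 16.8 and 17.5 FPKM in the knockdown libraries, against 10.5 and 12.5 FPKM in the control libraries (log2 fold change 0.54, adjusted p = 0.118). USP14, a deubiquitinase that docks on the cap, stood at 20.5 and 20.3 FPKM in the knockdown libraries, against 15.4 and 12.02 FPKM in the control libraries (log2 fold change 0.55, adjusted p = 0.134). ADRM1, a ubiquitin receptor of the cap, stood at 60.2 and 54.7 FPKM in the knockdown libraries, against 42.3 and 45.2 FPKM in the control libraries (log2 fold change 0.38, adjusted p = 0.152). In these 4 genes the groups did not overlap, with the knockdown higher, as in 35.6% of all tested genes. The fifth with an unadjusted p under 0.05 was UBE3C, a ubiquitin ligase that binds the proteasome, named here after its values were seen (log2 fold change 0.37, adjusted p = 0.151). SEM1, the smallest lid subunit, overlapped, with 17.7 and 24.6 FPKM in the knockdown libraries, against 17.0 and 20.01 FPKM in the control libraries (log2 fold change 0.17, adjusted p = 0.619).

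A list of 15 genes around NFE2L1, the transcription factor of the proteasome genes, had 13 tested members and a median log2 fold change of 0.22. Of these 8 were above 0, a share near the 61.4% of all tested genes, and at an unadjusted p under 0.05, 3 were higher (14.8% of all) and 1 lower (8.0% of all). FBXW7 and KLF15 did not reach the level needed for a test. NFE2L1 itself stood at 54.5 and 23.0 FPKM in the knockdown libraries, against 57.6 and 55.7 FPKM in the control libraries (log2 fold change -0.66, SE 0.407, adjusted p = 0.395 in limma). Both knockdown libraries lay below both control libraries, but knockdown replicate 1 did so narrowly (54.5 against 55.7 FPKM). Without knockdown replicate 2 the log2 fold change was -0.06. NFE2L2, a relative that answers oxidative stress, stood at 28.6 and 27.9 FPKM in the knockdown libraries, against 20.9 and 20.9 FPKM in the control libraries (log2 fold change 0.42, adjusted p = 0.118). SEL1L, which serves the breakdown of proteins from the endoplasmic reticulum, stood at 14.6 and 13.5 FPKM in the knockdown libraries, against 10.2 and 8.03 FPKM in the control libraries (log2 fold change 0.58, adjusted p = 0.126). BTRC, a substrate receptor of a ubiquitin ligase, stood at 4.90 and 4.73 FPKM in the knockdown libraries, against 6.81 and 6.64 FPKM in the control libraries (log2 fold change -0.41, adjusted p = 0.134). NFE2L2, SEL1L and BTRC also did not overlap between the groups, and neither did most of the other tested genes of the list. Of all tested genes, 35.6% were higher and 19.2% lower in the knockdown without overlap. MAFG, a small MAF partner of both factors, was the remaining gene with an unadjusted p under 0.05 and was named after its values were seen (log2 fold change 0.40, adjusted p = 0.174). Of the 7 members with a higher level and an unadjusted p under 0.05, 4 held the antioxidant response element core (PSMD1, PSMD3, PSMD5 and PSMD12). Of the other 31 tested members with a promoter sequence, 8 did. The general CCAAT box was also found in 4 of the 7, and in 13 of the 31. The interferon regulatory element core was found in 1 of the 7 and 6 of the 31. No test was made, since the members were picked by their values.

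Among genes upstream of the proteasome, 1 stood apart without passing the adjusted threshold. Of 18 ubiquitin, activating-enzyme and shuttle genes, 12 were above 0 (61.4% of all tested genes), 1 was higher at an unadjusted p under 0.05 (14.8% of all), and the median was 0.13. That gene was SQSTM1, the autophagy receptor for ubiquitin-tagged cargo. It stood at 104.2 and 103.8 FPKM in the knockdown libraries, against 50.4 and 50.6 FPKM in the control libraries. The replicates were close and the groups far apart, with a log2 fold change of 1.03 (SE 0.101) and an adjusted p of 0.055 in limma. Its adjusted p was 0.0449 when only genes averaging 5 FPKM or more were tested, and it ran up to 0.255 over the alternatives. The next lowest p in the list belonged to DDI2, the protease that activates NFE2L1, with 4.92 and 4.88 FPKM in the knockdown libraries, against 4.27 and 2.74 FPKM in the control libraries (adjusted p = 0.294). UBQLN1, a shuttle factor, stood at 35.2 and 37.0 FPKM in the knockdown libraries, against 32.4 and 30.0 FPKM in the control libraries (adjusted p = 0.325).

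The complexes built like the proteasome lid were set beside it. The COP9 signalosome, which removes NEDD8 from ubiquitin ligases, had 9 of 10 tested genes above 0 (61.4% of all tested genes), 1 higher at an unadjusted p under 0.05 (14.8% of all) and a median of 0.18. COPS2 stood at 19.4 and 21.4 FPKM in the knockdown libraries, against 14.5 and 13.97 FPKM in the control libraries (log2 fold change 0.49, adjusted p = 0.114 in limma). COPS9 stood at 3.70 and 3.30 FPKM in the knockdown libraries and 1.97 and 2.87 FPKM in the control libraries, and COPS3 at 34.9 and 31.3 FPKM in the knockdown libraries and 24.4 and 28.9 FPKM in the control libraries. The 8 related subunits of the translation factor eIF3 had a median of 0.06, with 5 above 0 and 2 higher at an unadjusted p under 0.05, beside the same shares of all genes. EIF3A stood at 105 and 126 FPKM in the knockdown libraries, against 87.8 and 86.2 FPKM in the control libraries (adjusted p = 0.185). EIF3C stood at 38.4 and 42.5 FPKM in the knockdown libraries, against 31.2 and 33.2 FPKM in the control libraries (adjusted p = 0.196), and EIF3E at 54.4 and 63.4 FPKM in the knockdown libraries, against 50.0 and 54.4 FPKM in the control libraries (adjusted p = 0.479). None of the 6 lists held a gene with an adjusted p under 0.05.

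The members lie on 17 chromosomes, with 8 on chromosome 14 and 7 on chromosome 17. In GENCODE 29, 7 share exon bases with another gene on the same strand (PSMA1, PSMA2, PSMA6, PSMB10, PSMD9, PSME2 and PSMF1) and 17 with a gene on the opposite strand. The table also holds 32 pseudogenes named after 12 members, none above 6.68 FPKM. Without the 16 members with a same-strand overlap or a named pseudogene, the class medians were 0.14 for the core, 0.24 for the ATPases and 0.27 for the non-ATPase subunits, an alternative chosen after the data were seen.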

How the data were processed

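RNA was measured in 4 libraries, 2 with lnc-DC knocked down and 2 controls. Per the labels' protocols, polyadenylated RNA was selected on beads out of 5 µg total RNA, made into dUTP-marked (stranded) libraries and read as pairs of 150 bases. The authors deposited FPKM values with 2 decimals, a ratio of group means (fold) and its log2. The submitters' processing notes name StringTie 1.3.4d, HISAT2 2.0.4, cutadapt 1.9, edgeR and DESeq2 without their roles; for build, annotation and strand setting the entry is: not given in the sources used here. FPKM is relative to the library total, so a few abundant transcripts move all others.

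As the file has no read counts, the count test planned for such data was not needed. Genes averaging 1 FPKM or more in a group were compared with limma 3.58.1 (R 4.3.3) on log2(FPKM + 1). The fit had trend on and group as the only term, and was two-sided, with Benjamini-Hochberg over 12411 genes and a threshold of 0.05. It was also run on values simulated with its own spread. Those values meet its assumptions by design, so that run does not show how well it holds for these libraries. The added 1 shrinks the fold change of weakly expressed genes. Unadjusted p are given beside the background share and make no call. An exact permutation test of 2 libraries against 2 cannot go below 0.333 and was not used. Depth could not be recovered: at the best depth 26.4% to 29.3% of low values were near whole reads, against a median of 20.4% to 21.5% over the depths tried. There were 0 columns without a sample. Positions are from GENCODE 29, which held 58552 of the 58825 gene IDs.

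Members, classes and the 6 lists were chosen with earlier results of these data known. Levels in every library were given, in each class, for the 3 members with the smallest p and those with the highest and lowest mean FPKM. The same was done for PSMB5, PSMB6, PSMB7, PSMB10, PSMC1, PSMD4, PSMD11 and PSMD14. In each list it was done for the 3 genes with the smallest p, and for PSMB8, PSMB9, POMP, NFE2L1, ADRM1 and SEM1. The log2 fold change, its SE and the adjusted p were not printed for all of these genes. The alternatives were another pseudocount (0.25), no filter or a minimum of 5 FPKM, median centring, quantile normalization, rescaling of nuclear genes to a common total, robust fitting, a replicate block and leaving out each library.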

Additional observations from a re-analysis of the deposited data

How the results depend on the processing

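No alternative that was run called a proteasome member at an adjusted p under 0.05, the lowest being 0.0501 for PSMB10 with a minimum of 5 FPKM. Of 775 log2 fold changes over 65 named genes and their settings, 741 kept their direction and side of the threshold, 33 in 17 genes changed sign and 1 (SQSTM1) passed the threshold. The 31 genes called among all tested became 0 with no filter (3876 at an unadjusted p under 0.05), 58 with a minimum of 5 FPKM, 57 under quantile normalization and 0 to 0 without 1 library (1797 to 2251 at an unadjusted p under 0.05). Members higher at an unadjusted p under 0.05, 7 as reported, became 2 under median centring, 3 under quantile normalization and 2 to 6 without 1 library; those lower, 1 as reported, became 2 under quantile normalization, which adds PSMB4, 1 to 2 without 1 library and 0 when members with overlaps or pseudogenes were left out, PSMB10 being 1 of these; this alternative, and that of counting every PSMD gene as a non-ATPase subunit (median 0.24), were chosen after the data were seen. Over all tested genes, unadjusted calls were 1834 higher and 993 lower, but 1184 and 1397 under median centring. The ATPase median was 0.18 under median centring, 0.13 under quantile normalization and 0.21 to 0.34 without 1 library, and the core median -0.0165 to 0.27 without 1 library. The cause was not tested. Signs changed under median centring for PSMA4 (-0.0252), PSMD13 (-0.0525) and PSMG2 (-0.0722), under quantile normalization for PSMA4 (-0.0757), PSMA5 (-0.0002), PSMD7 (-0.014), PSMD13 (-0.10) and PSMG2 (-0.11), and after rescaling to nuclear genes for PSMD13 (-0.015) and PSMG2 (-0.0348). Without 1 library the log2 fold change ran between -0.10 and 0.54 for PSMA1, -0.18 and 0.29 for PSMA4, -0.0639 and 0.29 for PSMA5, -0.31 and 0.0155 for PSMA6, -0.0263 and 0.32 for PSMB1, -0.23 and 0.0131 for PSMB3, -0.0066 and 0.28 for PSMB7, -0.25 and 0.069 for PSMC5, -0.0995 and 0.0658 for PSMD4, -0.0717 and 0.29 for PSMD7, -0.10 and 0.16 for PSMD13, -0.0435 and 0.50 for PSMD10, -0.47 and 0.16 for PSME2, -0.0127 and 0.32 for PSME4, -0.10 and 0.12 for PSMG2, -0.18 and 0.021 for PSMG4, and -0.0534 and 0.40 for SEM1. A fit left with a lone library in a group assumes that it varies like the other group. With the replicate block 0 genes were called (3791 at an unadjusted p under 0.05) and 12 members were higher at an unadjusted p under 0.05, and no member's adjusted call changed; deviations of same-numbered libraries correlated at 0.124 across 12411 genes, and with 2 pairs the numbers were not taken as a pairing. With 2 libraries a group and no recoverable depth, differences of the size seen in most members could not be separated from the spread between libraries.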
